A study of Mus musculus with 9 samples.

Results

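Agap2, listed under its older name Centg1 in the authors' deposited gene table, is 1 of 11618 genes with at least 1 transcript tag in 9 libraries of RNA crosslinked to FMRP or to Hu proteins in mouse brain polyribosomes. It was chosen by its measured tag levels, because it was among the 10 genes with the highest mean tag level of FMRP and also among the 10 of Hu, and it was the only gene in both lists of 10. Its levels, and the comparison of its level between the proteins, are therefore given as a description with no test. The position of its tags, the repeats of one position and the reads behind each tag were not criteria of the choice. Repeats of one position do raise the tag count by which Agap2 was chosen. Counted as 1 tag per start position, it ranked 52 at P11 and 81 at P13 for Hu. Position and repeats of its Hu tags are therefore not independent of the choice. Agap2 lies on the plus strand of chromosome 10 at chr10:126515963-126530225 of the mm9 build, by the bounds in the authors' deposited table. That table gives a transcript of 5633 nt with 3561 nt of coding sequence. The neighbouring genes Tspan31 and Os9 do not overlap these bounds.

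AGAP2, also called PIKE, is a brain-rich GTPase that carries a pleckstrin homology domain, an Arf GTPase-activating domain and ankyrin repeats. Its isoforms raise the activity of PI3 kinase and of Akt, and its long form is known to couple metabotropic glutamate receptors to PI3 kinase through Homer. FMRP, an RNA-binding protein, is missing in fragile X syndrome. It sits on polyribosomes and holds back translation of the mRNAs it binds, and Agap2 mRNA is a known target whose protein is raised in mice without FMRP. The neuronal Hu proteins (ELAV-like) bind stretches rich in U, mostly in 3′ untranslated regions and introns, and act on the stability, splicing and translation of mRNAs.

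In the assay, HITS-CLIP, ultraviolet light fixes protein to RNA, the protein is immunoprecipitated, and the RNA fragments that remain are sequenced as tags. All libraries came from polyribosomes of cortex and cerebellum of FVB mice, with littermates pooled, and the Fmr1-null libraries of the study were not analysed here. Protocol 1 (1% SDS, 454 sequencing) gave 5 FMRP libraries. Of these, 3 were made with a mixture of the monoclonal antibodies 7G1-1 and 2F5, at P14, P15 and P25, and 2 with the polyclonal antibody ab17722, at P14 and P25. Protocol 2 (2% SDS, Illumina sequencing) gave 2 FMRP libraries with ab17722, at P11 and P13, and 2 Hu libraries with an anti-Hu serum, at P11 and P13. Each of the 2 lysates of Protocol 2 was shared by ab17722 and the Hu serum. The P number is the postnatal day, and libraries are named by protein, age, antibody and platform. Replicates of a group are pools of mice of different ages, so each p-value reflects only the spread among these libraries.

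The 454 libraries held between 4397 and 7713 transcript tags, and the Illumina libraries between 25873 and 49847. A count of 0 allows up to 3 tags, equal to 682 CPM (tags scaled to the same library total) where tags were fewest and to 60.2 CPM where they were most. All 6 neuronal markers had tags, with a summed level of 3583 to 6222 CPM in the FMRP libraries and 7266 to 13020 CPM in the Hu libraries. The 4 oligodendrocyte markers summed to 261 to 2246 CPM for FMRP and 4986 to 11234 CPM for Hu, and the part of this difference in the Agap2 values was not tested. The 4 astrocyte markers summed to 178 to 1605 CPM for FMRP and 77.3 to 120.4 CPM for Hu. Of the 4 microglial markers Cx3cr1 and Aif1 had no tag, of the 4 endothelial markers Cldn5 and Tek had none, and of the 3 liver genes Alb and Apoa1 had none. In crosslinked bulk tissue, fewer cells with the mRNA, less mRNA per cell and less protein bound per mRNA cannot be told apart.

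Agap2 tags were numerous in every library. In the FMRP libraries of the monoclonal mixture it had 29 tags at P14, 41 at P15 and 56 at P25, or 6595, 6063 and 7260 CPM. With the polyclonal antibody on 454 it had 42 tags at P14 and 14 at P25, or 6429 and 2489 CPM. With the same antibody on Illumina it had 88 tags at P11 and 142 at P13, or 3284 and 3222 CPM. The 4 highest FMRP libraries were those of P14, P15 and P25 on 454 other than the P25 polyclonal library, and the other 3 lay close together below them. The 95% Wilson intervals, which cover counting error only, ran from 0.148% to 0.417% of all tags in the P25 polyclonal library and from 0.560% to 0.942% in the P25 monoclonal library. Agap2 ranked between 2 and 6 in those 4 highest libraries, and 22, 19 and 12 in the P25 polyclonal, P11 and P13 libraries. Over the 7 FMRP libraries its level was 5049 ± 1967 CPM (SD, n = 7), behind the presynaptic scaffold gene Bsn, the microtubule protein gene Map1a and the kinesin gene Kif1a.

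Hu brought down 122 Agap2 tags at P11 and 193 at P13, or 4715 and 3872 CPM. The gene ranked 6 and 11 there, and its mean of 4294 ± 596 CPM (SD, n = 2) was the eighth highest, below those of genes such as Actb, Calm3, Ywhag, Snap25 and Qk. In both lysates the FMRP value was lower than the Hu value, by 0.52 on the log2 scale at P11 and by 0.27 at P13. The edgeR fit of the 4 Illumina libraries, which scales libraries by TMM factors, gave a log2 difference of -0.12 (SE 0.51) for FMRP over Hu. In that fit 340 of 1015 genes (33.5%) were higher in FMRP and 271 (26.7%) lower. The Agap2 levels of the 2 proteins therefore overlapped: both Hu values lay inside the range of the 7 FMRP libraries, and above both FMRP values of the same lysates.

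**Figure D1:**
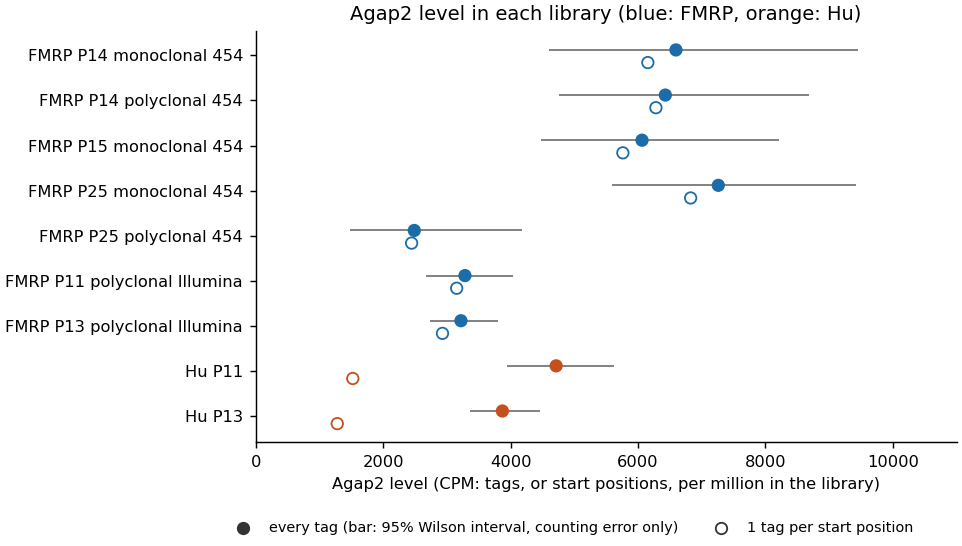
Agap2 level in each of the 9 libraries, on the horizontal axis in CPM, with FMRP in blue and Hu in orange. Filled points count every tag, with 95% Wilson intervals, and open points count 1 tag per start position: the open points sit close to the filled ones for FMRP, while those of Hu fall from 4715 to 1524 CPM at P11 and from 3872 to 1280 CPM at P13.

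The tags of the 2 proteins lay in different parts of the transcript, mostly coding for FMRP and after the coding sequence for Hu. The coding stretch was not given by position in the files used here. It was placed along the transcript so that it came closest to the authors' deposited coding counts, which left a start between nt 716 and nt 734, an end between nt 4276 and nt 4294, and 1 tag of the FMRP libraries on the wrong side. Positions are counted from 1 at the start of the RefSeq transcript. With that placement, 339 of the 412 FMRP tags lay in or touched the coding stretch, 7 lay before it and 66 after it. None of the 315 Hu tags touched the coding stretch, and all of them lay after it.

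Library by library, the share of FMRP tags in the coding stretch was 79.3% at P14, 78.0% at P15 and 80.4% at P25 with the monoclonal mixture. It was 78.6% at P14 and 71.4% at P25 with the polyclonal antibody on 454, and 89.8% at P11 and 82.4% at P13 on Illumina. The lowest of these, from the P25 polyclonal library, rested on 10 of 14 tags. In the authors' deposited table, which counts genomic tags, 312 of the 386 Agap2 tags over the 7 libraries are coding. By those counts the coding share was 79.3% ± 5.0 (SD, n = 7), from 75% in the P25 polyclonal library to 89.0% in the P11 library. Coding sequence makes up 63.2% of the transcript, so the share was above that of the length in all 7 libraries.

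For Hu, 122 of 122 tags at P11 and 193 of 193 at P13 lay after the coding stretch. The Wilson intervals reached down to 96.9% and 98.0%. A single Hu tag, at P13, began before nt 5250, at nt 4373. The corresponding share for FMRP ran from 9.09% at P11 to 28.6% in the P25 polyclonal library, and the groups did not overlap.

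**Figure D2:**
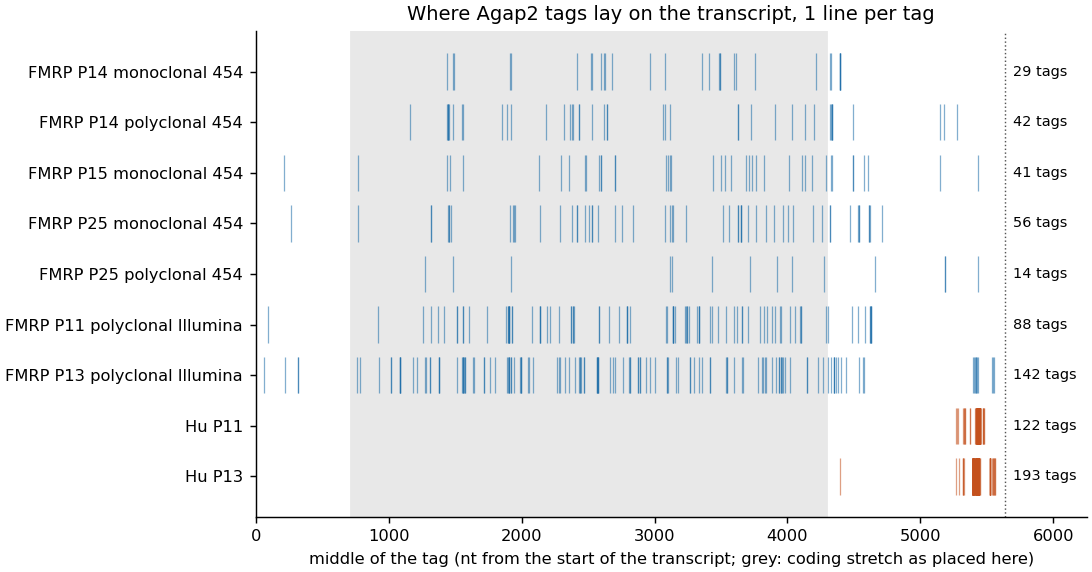
Position of each Agap2 tag on the transcript, as nt from its start on the horizontal axis, with 1 line per tag and 1 row per library; grey marks the coding stretch as placed here and the dotted line the end of the transcript. FMRP tags (blue) spread over the coding stretch in all 7 libraries, and the Hu tags (orange) stand together near the end, apart from 1 at P13.

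The middle of the median FMRP tag stood at 59.6% of the transcript's length at P14, 62.1% at P15 and 55.7% at P25 with the monoclonal mixture. It stood at 46.7% and 67.8% in the P14 and P25 polyclonal 454 libraries, and at 55.7% and 47.8% in the P11 and P13 Illumina libraries. Both Hu libraries had it at 96.4%. The FMRP mean was 56.5% ± 7.6 (SD, n = 7) against 96.4% ± 0.013 (SD, n = 2) for Hu, a difference of -39.9 percentage points with no overlap. The exact permutation test over libraries gave a two-sided p of 0.0556, which is the smallest that 7 against 2 libraries allow. Within the 4 Illumina libraries, which share platform and lysates, the difference was -44.6 points, and the exact p was 0.333, again the smallest possible. Neither design could reach 0.05. Repeats of one position raise the Hu tag count by which Agap2 was chosen, so the Hu position is not independent of the choice. Platform, protocol and age are mixed with protein in the comparison of 7 against 2, and are not in that of 2 against 2. The permutation did not keep libraries of a shared lysate together as pairs.

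FMRP tags were scattered along the mRNA. When the transcript was divided into 57 stretches of 100 nt by tag middle, 48 held an FMRP tag and 5 held a Hu tag. A single stretch, nt 3701 to 3800, had tags in all 7 FMRP libraries, with 11 tags in sum, and 9 more had tags in 6 of 7. The fullest stretch was nt 1901 to 2000 with 24 tags in 6 libraries. It was followed by nt 4301 to 4400, just past the coding stretch, with 23 tags in 6 libraries. From nt 4801 to nt 5100 no library of either protein had a tag. The stretches before nt 701 held 7 FMRP tags in all.

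FMRP tags also seldom began at the same base. The 412 tags began at 306 positions when all 7 libraries were laid together. Of these positions 254 were used in 1 library, 45 in 2 and 7 in 3 or more. Within a library there were 86.2, 92.7 and 91.1 distinct starts per 100 tags in the P14, P15 and P25 monoclonal libraries. The P14 and P25 polyclonal 454 libraries both had 92.9, and the P11 and P13 Illumina libraries had 87.5 and 85.9. No start held more than 4 tags of an FMRP library, a number reached in the P13 library at nt 1543.

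Hu tags repeated a few positions many times. At P11 the 122 tags had 33 distinct starts, and at P13 the 193 tags had 55, or 27.0 and 28.5 per 100 tags. Both were below every FMRP library. In both Hu libraries the most used start was the same base, nt 5408, with 39 tags at P11 (31.97% of the gene's tags) and 45 at P13 (23.3%). Those tags were identical from end to end, covering nt 5408 to 5455, which is chr10:126530000-126530047 in mm9. The next most repeated tags at P11, with 15, 11 and 11 tags, began at nt 5410, 5411 and 5412 and ended at the same base.

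The shared end was the common feature of the Hu tags. At P11 87 tags (71.3%) ended at nt 5455 and at P13 103 tags (53.4%) did, from 14 and 18 different starts and with lengths from 28 to 71 nt. P13 had a second stack that P11 did not have among its most repeated tags: 32 tags of 71 nt from nt 5362 to 5432 (16.6%). Of the distinct starts, 13 were used in both Hu libraries, and they held 80.3% of the P11 tags and 53.4% of the P13 tags. For comparison, the P11 and P13 FMRP Illumina libraries shared 20 starts, which held 26.1% and 19.0% of their tags.

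The densest 100-nt window of each library puts this into a single number, the share of the gene's tags whose middle falls in the window. For FMRP it was 20.7%, 9.76% and 10.7% in the P14, P15 and P25 monoclonal libraries. It was 14.3% in both the P14 and the P25 polyclonal 454 libraries, 10.2% at P11 and 7.75% at P13. The fullest windows began at 7 different bases, from nt 1442 in the P14 polyclonal library to nt 4324 in the P14 monoclonal library. Some overlapped: nt 1885 to 1984 at P11 with nt 1896 to 1995 at P13, both on Illumina. On 454, nt 3085 to 3184 in the P15 monoclonal library overlapped nt 3119 to 3218 in the P25 polyclonal library. For Hu the share was 91.8% at P11 (nt 5411 to 5510) and 88.6% at P13 (nt 5394 to 5493). The mean was 12.5% ± 4.3 (SD, n = 7) for FMRP and 90.2% ± 2.3 (SD, n = 2) for Hu, a difference of -77.7 points with no overlap. The exact permutation test gave the smallest two-sided p of 0.0556 again. Within the Illumina libraries the difference was -81.2 points at the smallest p of 0.333. Repeats of one position also raise the Hu tag count by which Agap2 was chosen, so this comparison is not independent of the choice. With few tags the densest window holds a larger share by its construction, and the P14 monoclonal value rests on 6 of 29 tags.

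The pooled Hu window covers nt 5394 to 5493, or chr10:126529986-126530085 in mm9, in the 3′ untranslated region as placed here and in the same unbroken genomic block as the end of the coding stretch. It ends 140 nt before the end of the transcript. It held 283 of the 315 Hu tags. The 5 FMRP 454 libraries had 2 tags in it, the P11 library had 0, and the P13 library had 7.

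**Figure D3:**
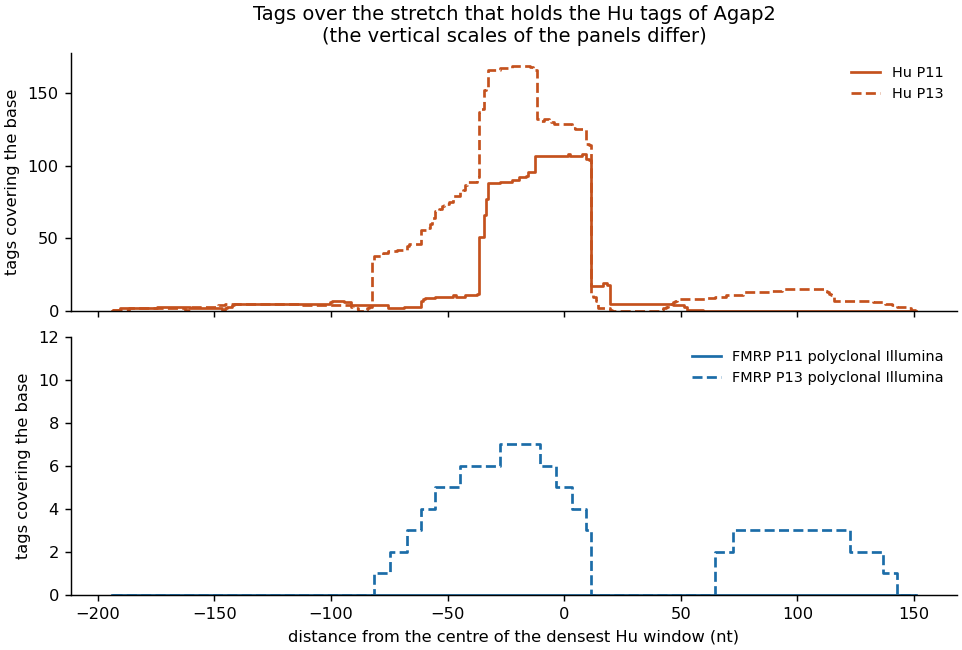
Number of tags covering each base of the stretch that holds the Hu tags, against the distance in nt from the centre of the pooled Hu window, for Hu (orange) and FMRP (blue) libraries of the same lysates; the vertical scales of the panels differ. Coverage reached 108 of 122 tags in Hu P11 and 169 of 193 in Hu P13, and at most 7 of 142 in FMRP P13, while FMRP P11 stayed at 0.

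The P13 FMRP library had 10 tags in the wider stretch from nt 5250 to 5595 where Hu tags lay. Of these, 6 had the same first and last base as a Hu tag of the same lysate and 3 the same as a Hu tag at P11. None also shared the barcode, a run of 5 letters in the tag name. The 10 tags carried 11 copies together by the number in the tag name, and 1 of them carried more than 1 copy. The P11 FMRP library had no tag in the stretch. Carry-over between the libraries was not tested.

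In every library 50.0% or more of the Agap2 tags rested on more than 1 read or copy. On 454, where the deposited value is the number of reads merged into a tag, Agap2 tags stood for 721, 156 and 583 reads in the P14, P15 and P25 monoclonal libraries and for 345 and 212 reads in the P14 and P25 polyclonal libraries. The share of Agap2 tags with a single read was 48.3%, 41.5% and 33.9% in the former and 35.7% and 50.0% in the latter. Over all tags of the same libraries, in the same order, it was 37.1%, 46.97% and 31.9%, then 37.9% and 28.9%. The most read FMRP tag of P25 with the polyclonal antibody held 39.6% of that library's Agap2 reads.

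On Illumina each tag name carries a number read here as the copies of that tag, a meaning not given by any label or header. By that number 22.7% of Agap2 tags at P11 and 37.3% at P13 had 1 copy for FMRP, against 38.1% and 49.0% of all tags in those libraries. For Hu it was 21.3% at P11 and 11.4% at P13, against 47.5% and 40.0% of all tags. Tags with 10 or more copies made up 68.9% and 78.2% of the Agap2 tags of Hu at P11 and P13, and 41.9% and 41.8% of all their tags. For FMRP at P11 and P13 they made up 63.6% and 45.1%, against 51.0% and 37.1% of all tags. The mean copies per Agap2 tag of Hu, 96.8 at P11 and 100.8 at P13, were below the 190.1 and 132.0 of all tags. All 39 tags of the P11 stack at nt 5408 had more than 1 copy, with a median of 51 and a range of 6 to 356. All 45 of the P13 stack did as well, with a median of 57 and a range of 10 to 329. The stacks were therefore not made of tags seen once.

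The tags of a stack carried different barcodes: 39 of 39 at P11 and 45 of 45 at P13. Of these, 16 in each library were not a single letter away from a barcode with more copies at the same position. Where only barcodes with at least 10 times the copies were considered, 39 of 39 at P11 and 44 of 45 at P13 were not. Whether neighbouring barcodes came from errors was not tested. In all 4 Illumina libraries 95.6% to 97.0% of the barcodes ended in G, so barcodes differed mostly in their other letters. Merging every tag into a more copied tag with the same ends and a barcode 1 letter away, a step chosen after seeing the data, removed 30.3% of the Agap2 tags of Hu at P11 and 27.5% at P13. It removed 0.634% and 0.512% of all tags in those libraries and none of the Agap2 tags of FMRP. Only tags with the same ends could be merged, so deep stacks could lose many tags and scattered tags few. Barcodes of separate molecules can also lie 1 letter apart, so the share removed is not a measure of errors. The level of Agap2 for Hu was then 3306 CPM at P11 and 2823 CPM at P13, with ranks of 13 and 17. No tag of Hu P11 had the same start, end and barcode as a tag of Hu P13.

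Counting 1 tag per start position moved Agap2 down for Hu and little for FMRP. For Hu it fell to 1524 CPM at P11 and 1280 CPM at P13, with ranks of 52 and 81. For FMRP it was 2447 to 6826 CPM, with ranks from 2 to 22. The fitted log2 difference of FMRP over Hu became 1.40 (SE 0.64) in place of -0.12. This way of counting also merges separate molecules that began at the same base, so it gives a lower limit to their number.

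Among the 50 genes with most Hu tags, Agap2 had the fewest distinct starts per 100 tags, 27.8 against a median of 79.2. Its densest window, at 90.2%, was second only to that of Eef1a1, a translation elongation factor gene, at 95.5%, against a median of 30.8%. The other genes of the first 10 had between 23.98% and 45.4% of their tags in the densest window. Among the 50 genes with most tags in the 2 FMRP Illumina libraries, Agap2 ranked 26 by its densest window, at 8.99% against a median of 9.02%, and 7 from the bottom by distinct starts, at 86.7 against a median of 90.1. These ranks describe these libraries and carry no test. Those for Hu are tied to the choice of Agap2, since repeats raise its Hu tag count.

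**Figure D4:**
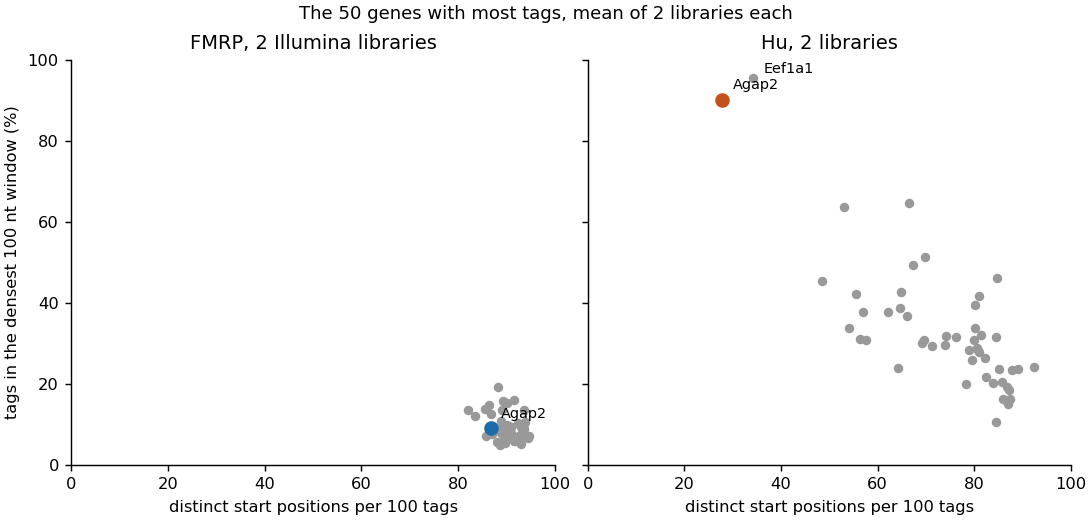
Share of tags in the densest 100-nt window, in percent, against distinct start positions per 100 tags for the 50 genes with most tags, each point the mean of 2 libraries, for FMRP on Illumina (left) and Hu (right). Agap2 sits among the other genes for FMRP, at 8.99% and 86.7, and with Eef1a1 at the upper left for Hu, at 90.2% and 27.8.

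The genomic lists, which also hold introns and the opposite strand, were read within the bounds of the gene. On the strand of Agap2 within its bounds there were 31, 43 and 53 tags in the P14, P15 and P25 monoclonal libraries, 38 and 16 in the P14 and P25 polyclonal 454 libraries, and 73 and 133 in the P11 and P13 Illumina libraries. Hu had 114 at P11 and 186 at P13. On the opposite strand there was 1 tag each in the P14 polyclonal, the P25 monoclonal and the Hu P13 library, and none in the other 6. Between 0 and 3 sense tags of a library had no transcript tag at a matching position, within 3 nt at either end. The highest number, 3 of 16, was in the P25 polyclonal library. A match at either end was enough, so matching tags need not cover the same bases. A separate CENTG1 line of the authors' deposited table, upstream at chr10:126512320-126514557, held 1 tag in Hu P11 and none in the other 8 libraries.

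The comparisons that did not enter the choice of Agap2 showed no change that passed its test. Between the antibodies on 454, the authors' deposited counts for Agap2 were 31, 43 and 53 with the monoclonal mixture and 38 and 16 with the polyclonal antibody. As CPM these were 6912, 5818 and 6340 against 5461 and 2726, which did not overlap; the transcript tags given above did, since the P14 polyclonal library lay between the monoclonal ones. The log2 fold of monoclonal over polyclonal was 0.49 (SE 0.34), with an adjusted p of 0.999 in the quasi-likelihood test of edgeR, Benjamini-Hochberg adjusted over all genes tested. Of 96 genes tested, 0 were called (0%), 4 had an unadjusted p under 0.05, and DESeq2 called 0. The fold rested on the 2 polyclonal libraries: it was 0.15 without that of P25 and 1.08 without that of P14.

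Age was compared on the same 5 libraries with the antibody as a term. Agap2 was at -0.21 (SE 0.30) for P25 over P14 and P15 on the log2 scale, with an edgeR adjusted p of 0.823, and 1 of 96 genes (1.04%) was called. At P25 the authors' deposited counts were 53 and 16, or 6340 and 2726 CPM. At P14 and P15 they were 31, 38 and 43, or 6912, 5461 and 5818 CPM. In CPM the P25 monoclonal library lay inside the range of P14 and P15, and the P25 polyclonal library below it. The direction turned when either polyclonal library was left out, to 0.028 without P14 and 0.077 without P25.

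Protocol 2 was compared with Protocol 1 within the polyclonal antibody, where protocol, platform and age cannot be told apart. The authors' deposited counts were 73 and 132 on Illumina and 38 and 16 on 454, or 2863 and 3030 against 5461 and 2726 CPM. The groups overlapped. Agap2 was at -0.29 (SE 0.44), with an edgeR adjusted p of 0.719, and 28 of 334 genes (8.38%) were called, 14 higher and 14 lower (4.19% each); DESeq2 called 0. With library totals in place of TMM the split was 4 higher and 16 lower. The direction turned without the P14 library, to 0.36, and with no filter on low counts, to 0.42. With no filter the median log2 of all genes was 1.85, against 0.05 in the main fit, so Agap2 stayed below that median.

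The median length of Agap2 tags was 31.5 to 45 nt in the 454 libraries, 49.5 nt and 55 nt in the FMRP Illumina libraries at P11 and P13, and 46 nt and 58 nt in the Hu libraries. At P13 36.8% of the Hu tags of Agap2 were 70 nt or longer, where the longest tag of any Illumina library was 73 nt, against 11.3% of all tags of that library.

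Other genes for Arf GTPase-activating proteins were tagged far less. In this and the following lists FMRP tags are summed over 7 libraries and Hu tags over 2. The log2 values use the 4 Illumina libraries only. Of 14 such genes 13 had a tag, 7 had 10 or more over the 9 libraries, and 3 could be tested between the proteins. None was higher in FMRP (33.5% of all 1015 genes were) and 1 was lower (26.7% were). Their median log2 was -1.36 against -0.17 over all genes tested. The 3 tested genes, Agap1, Acap2 and Git2, each had more Hu tags than FMRP tags on Illumina. Some others, such as Git1, leaned to FMRP but had too few tags to be tested, so the 3 do not stand for the list. Agap1, a close relative of Agap2, had 54 FMRP tags (38 on Illumina) and 95 Hu tags. Its log2 of -1.06 (SE 0.61) did not pass in edgeR (adjusted p = 0.150). Git1, a scaffold of the focal adhesion and synapse, had 49 FMRP tags (23 on Illumina) and 1 Hu tag, and was not tested. Acap2, which acts on Arf6, had 12 FMRP tags (8 on Illumina) and 27 Hu tags. The gene that passed was Git2, a relative of Git1, with 5 FMRP tags (3 on Illumina) and 29 Hu tags. Its log2 was -2.83 (SE 0.66, adjusted p = 0.00718 in edgeR), and it was singled out after its values were seen.

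Genes for proteins known to bind AGAP2 gave 6 of 9 members with a tag, all 6 with 10 or more, and 2 that could be tested. Of these 1 was higher in FMRP and none lower, with a median log2 of 0.49, where 33.5% of all 1015 genes were higher, 26.7% lower and the median was -0.17. Epb41l1, which encodes the neuronal band 4.1 protein that binds AGAP2, had 141 FMRP tags (83 on Illumina) and 30 Hu tags. Its log2 of 1.84 (SE 0.66) passed in edgeR (adjusted p = 0.0370). Grm5, the metabotropic glutamate receptor gene, had 44 FMRP tags (19 on Illumina) and 45 Hu tags. It was at -0.87 (SE 0.65), which did not pass in edgeR (adjusted p = 0.254). Ptk2, the focal adhesion kinase gene, had 39 FMRP tags (28 on Illumina) and 1 Hu tag, and was not tested. Homer1 and Fyn had no tag in any library.

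Along the PI3 kinase, Akt and mTOR pathway 16 of 20 genes had a tag and 13 had 10 or more. Of 6 tested between the proteins, 2 were higher in FMRP and 2 lower, with a median log2 of -0.08. Over all 1015 genes 33.5% were higher and 26.7% lower, with a median of -0.17, so the counts for the pathway lie near that background. Gsk3b, a kinase that Akt holds inactive, had 44 FMRP tags (38 on Illumina) and 150 Hu tags. Its log2 was -1.61 (SE 0.57, adjusted p = 0.0350 in edgeR). Pik3r1, the regulatory subunit gene of PI3 kinase, had 31 FMRP tags (22 on Illumina) and 93 Hu tags. Its log2 was -1.68 (SE 0.62, adjusted p = 0.0415 in edgeR). The genes that were higher, named after their values were seen, were Tsc2, a brake on mTOR, and Mtor itself. Tsc2 had 59 FMRP tags (42 on Illumina) and 0 Hu tags, and Mtor had 75 (51 on Illumina) and 1. Akt1, Rictor and Rps6kb1 had no tag in any library.

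The 5 genes whose level followed that of Agap2 most closely over the 9 libraries were Cmip (Pearson r = 0.900), Rimbp2 (0.878), Rere (0.819), Maz (0.792) and Auts2 (0.749), of 364 other genes with a tag in every library. The measure was the log2 CPM with 0.5 added to each tag count. The libraries share protein, platform and depth in blocks, so r is given as a description. Over the 7 FMRP libraries alone the r of these genes was 0.760 to 0.926. They were tagged less than Agap2, at 360 to 1149 CPM for FMRP and 254 to 786 CPM for Hu.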

How the data were processed

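The members and lists were chosen with earlier results of these data known. Tags came aligned by Novoalign to mm9, per the submitters' processing notes, with versions not given in the sources used here. Each line of a list of unique tags, on RefSeq transcripts or on the genome, was counted as 1 tag. In the 454 lists the deposited value beside a tag is a count of merged reads, going by the values. The Illumina lists hold a deposited score, which was not used; copies and barcodes were read from the tag names. The authors' deposited table gives FMRP tag counts for each gene, in the whole transcript and in its coding part, with gene bounds, lengths, a rank treated as a score and an exon array intensity, which was not used for any result. Transcript tags were summed to 11618 genes, of which 9842 were named from RefSeq, 1569 from the authors' table and 207 kept an accession.

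Transcript positions were tied to mm9 through tags found under the same name in both lists, in blocks of at least 5 tags. Counts were fitted with edgeR 4.0.16 in R 4.3.3 (TMM, filterByExpr, quasi-likelihood test, Benjamini-Hochberg adjustment, threshold 0.05), and DESeq2 1.42.0 was an alternative. The code was tested on simulated data. Antibody, age and protocol used the authors' counts, and FMRP against Hu used transcript tags. Positions and windows were compared over libraries by exact permutation. The series text gives the lysates shared by FMRP and Hu, which were the replicate block of an alternative. The text names Agap2, the first 10 genes of each protein, the 5 genes most like it, and up to 3 members with most tags (at least 10) of each list; a few genes that this rule would name are not reported here. Sequences of the tags or of mm9 were not used here. Other alternatives were the scaling, the filter, the tag list, 1 tag per start, window sizes, the 5′ end of the tag and leaving out each library.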

Additional observations from a re-analysis of the deposited data

Results flagged for a closer look

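Agap2 in the P25 polyclonal library stood apart from the other 454 libraries of FMRP, at 2489 CPM against 6063 to 7260 CPM in the other 4. The gap to the nearest library was 0.749 of the whole range, above the limit of 0.71 for 5 libraries. In CPM of the authors' deposited counts it was 2726, and the gap of 0.653 stayed under that limit. The P14 monoclonal library had the fewest distinct starts of these 5, at 86.2 per 100 tags, with a gap of 0.731 of the range; it had 25 starts for 29 tags. In all 18 sets of values were examined in this way, 2 stood out, and chance alone picks about 1 in 20.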

How the results depend on the processing

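Alternatives numbered 118 over 13 results, of which 92 were rated the same, 4 changed direction and 22 moved. For tested results the same means that direction and call were kept. For called genes it means within a fixed ratio, and for levels and shares within the SD. The FMRP over Hu difference was rated only as the same or moved. Its sign also turned, to 0.24 with DESeq2 size factors, 1.40 with 1 tag per start and 0.35 without the P11 FMRP library. The position of the median tag and the densest-window share kept their direction and did not overlap between the proteins under every alternative. They ranged over -41.8 to -38.3 and -79.3 to -76.1 points when each library was left out, and with 1 tag per start the window share of Hu was 66.7%. With genomic tags the position difference was -25.95 points, where positions are shares of the gene bounds, introns included, and the FMRP mean was 72.6%. The antibody fold kept its direction, at 0.15 to 1.08 with a library left out. The age fold ran from -0.86 to 0.077 with a library left out, and its 1 called gene became 0 under every alternative. The protocol fold ran from -0.52 to 0.36 with a library left out and was 0.42 with no filter; its 28 called genes became 0 with DESeq2 and 1 to 20 with a library left out. Their split of 14 higher and 14 lower became 4 and 16 with library totals and 27 and 0 with no filter, and 18 and 2 or 14 and 2 without the P11 or the P13 library.

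The log2 difference of FMRP over Hu was 0.24 with DESeq2 size factors and -0.40 with library totals, where the median of all genes moved from -0.17 to 0.21 and -0.43. It was -0.33 with tags of more than 1 copy (added after seeing the data), 1.40 with 1 tag per start, and -0.22 to 0.35 with a library left out. The called genes, 611, became 323 to 531 with a library left out. With the replicate block for the shared lysate the difference was -0.12 and 602 genes were called. The Hu level of 4294 CPM became 1402 CPM with 1 tag per start and 3065 CPM with neighbouring barcodes merged. The coding share was 77.7% to 80.0% with a library left out. The cause of these shifts was not tested. Agap2 had 14 tags in the P25 polyclonal library, which limits the precision there.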
